A study of Homo sapiens with 6 samples.

Results

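A group of 72 protein-coding genes had far fewer RNA-seq counts in HELLS KO cells than in the HAP1 cells they derive from. They were chosen among the 60483 genes of the count table by the counts themselves. A gene entered when GENCODE types it as protein-coding, when each HAP1 library held at least 20 of its counts, and when its highest level in HELLS KO was under 0.4 of its lowest level in HAP1. Level here means CPM, the count of a gene scaled to a library total of 1000000. The count minimum was met by 12592 protein-coding genes, and 87 of these (0.691%) were under the ratio of 0.4. Of the 87, 15 were left out by name, namely CGAS, IFI16, PTPRN2, GTF2H2, CDA, PDE4B, MFAP2 and the genes whose symbols begin with COL, CDH, ITG, PCDH or ZNF. The 72 genes are what remained.

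HAP1 (C631) is a near-haploid human line derived from chronic myelogenous leukaemia. The HELLS KO line is a single purchased derivative of it with an insertion of 1 base pair in exon 3 of HELLS, so any difference between 1 line and the other goes with the genotype here. Both were kept under normal growth with no drug or other agent, and 3 libraries of total RNA were made from each. HELLS is a chromatin remodeller of the SNF2 family that has been linked to DNA methylation at repeats and at some promoters in other cells. Cytosine is methylated mostly at CpG dinucleotides, and most housekeeping genes start in a stretch rich in CpG that stays free of it. Genes used in a single tissue more often start in CpG-poor sequence, while many regulators of development start in CpG-rich sequence.

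Because the contrast between HAP1 and HELLS KO chose these genes, their differences are given as a description and carry no test. The positions of the genes, their start sequences, their neighbours and their relatives were not used in the choice. The same limits with the 2 lines exchanged, and with no gene left out by name, found 144 genes. They stand beside the 87 genes lower in HELLS KO before names were left out.

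The sequence around the start of a gene was looked at first, since methylation there is known to go with silence of the gene. The starts of the 6 genes with the lowest ratio among those with an entry in the RefSeq promoter table of GRCh38.p14 are shown, each as the 300 bases from 250 before the start to 50 after it, written 5′ to 3′ on the strand of the gene. Capitals mark each CpG. The starts are ordered from the fewest CpG to the most.
BRINP3, chr1:190477815-190478114, - strand: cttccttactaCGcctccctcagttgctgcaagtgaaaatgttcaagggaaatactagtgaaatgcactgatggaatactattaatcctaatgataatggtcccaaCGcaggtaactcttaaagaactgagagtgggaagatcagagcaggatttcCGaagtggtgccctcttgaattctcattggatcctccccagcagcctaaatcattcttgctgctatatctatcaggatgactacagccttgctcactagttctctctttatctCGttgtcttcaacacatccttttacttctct
PRRX1, chr1:170663881-170664180, + strand: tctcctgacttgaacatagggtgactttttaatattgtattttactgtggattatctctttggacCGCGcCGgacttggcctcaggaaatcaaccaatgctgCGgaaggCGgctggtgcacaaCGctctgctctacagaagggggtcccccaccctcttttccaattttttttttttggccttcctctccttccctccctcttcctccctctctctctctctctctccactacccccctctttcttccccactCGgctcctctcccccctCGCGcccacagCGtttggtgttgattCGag
SLC19A3, chr2:227717979-227718278, - strand: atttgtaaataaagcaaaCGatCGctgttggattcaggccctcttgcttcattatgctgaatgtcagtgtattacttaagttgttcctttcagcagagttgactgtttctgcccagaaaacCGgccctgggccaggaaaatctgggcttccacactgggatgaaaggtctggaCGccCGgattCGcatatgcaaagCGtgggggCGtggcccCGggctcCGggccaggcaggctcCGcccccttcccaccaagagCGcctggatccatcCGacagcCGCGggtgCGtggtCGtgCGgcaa
FBXO17, chr19:38975693-38975992, - strand: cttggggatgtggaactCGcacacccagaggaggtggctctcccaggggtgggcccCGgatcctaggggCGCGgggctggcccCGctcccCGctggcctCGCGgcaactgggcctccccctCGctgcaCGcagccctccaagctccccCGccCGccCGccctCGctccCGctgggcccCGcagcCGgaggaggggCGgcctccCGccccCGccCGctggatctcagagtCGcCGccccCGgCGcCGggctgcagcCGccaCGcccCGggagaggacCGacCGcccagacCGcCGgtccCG
SHISA2, chr13:26051967-26052266, - strand: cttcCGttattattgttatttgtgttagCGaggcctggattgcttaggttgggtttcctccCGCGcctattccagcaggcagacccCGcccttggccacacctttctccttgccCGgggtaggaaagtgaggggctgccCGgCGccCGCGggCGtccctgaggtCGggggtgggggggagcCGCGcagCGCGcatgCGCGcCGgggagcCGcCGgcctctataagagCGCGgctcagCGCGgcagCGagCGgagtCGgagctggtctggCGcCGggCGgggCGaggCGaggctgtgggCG
GSAP, chr7:77416300-77416599, - strand: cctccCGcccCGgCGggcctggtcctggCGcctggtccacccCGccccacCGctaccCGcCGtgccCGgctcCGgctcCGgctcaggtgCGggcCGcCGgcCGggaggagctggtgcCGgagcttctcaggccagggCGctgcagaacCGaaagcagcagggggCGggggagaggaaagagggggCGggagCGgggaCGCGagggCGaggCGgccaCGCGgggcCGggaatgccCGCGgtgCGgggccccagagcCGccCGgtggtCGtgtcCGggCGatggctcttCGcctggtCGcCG
These 6 windows, all of genes with next to no counts left in HELLS KO, ran from CpG-poor to CpG-dense. BRINP3 had 4 CpG in its window, PRRX1 11 and SLC19A3 18. FBXO17 and SHISA2 had 34 each, and GSAP had 39. Entries were present for 52 of the 72 genes. Genes without an entry included ADGRE2, APOBEC3C, APOBEC3D, APOBEC3G, ARGFX, CFAP300, EPCAM, FGF19, FGF4, FLI1, GREB1, JPH3, LIN28A, NTN1, PGM5, PTCHD1, RAB39B, SMN1 and TSPAN18.

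For all 72 genes the same window was then read from GRCh38 at the start of the GENCODE principal transcript. The median number of CpG was 23 in the 72 windows and 28 in the windows of the 12592 genes that met the count minimum, and the median GC content was 65.8% against 67.0%. The number of CpG divided by the number expected from the C and G content had a median of 0.737 against 0.86. This ratio was under 0.4 at 13 of the 72 starts (18.1%) and at 6.18% of the 12592. It was 0.6 or more at 50 starts (69.4%) against 88.3%. The CpG-poor starts were those of ADGRE2, APOBEC3C, APOBEC3D, APOBEC3G, ARGFX, BRINP3, GDF3, GREB1, GSTM3, KRT8, MYOM1, OLFML3 and POSTN. The plot of CpG content shows the 72 genes as a broader set with a tail of CpG-poor starts, while most of them still lay where most genes lie. The letters TATAAA, searched on both strands, were found in 6 of the 72 windows (8.33%) and in 4.84% of the 12592. These shares are descriptions, and the lower level of the 72 genes in HAP1, given next, goes with them. Its part in the CpG difference was not tested, and no methylation was measured in these libraries.

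In HAP1 these genes were expressed at low to moderate levels. Their mean HAP1 level ran from 1.71 to 70.0 CPM with a median of 7.8 CPM, and 22 genes were under 5 CPM while 7 reached 50 CPM or more. Per length, as FPKM, the median HAP1 level was 2.21 for the 72 genes against 12.1 for the 12592. In HELLS KO their mean level ran from 0 to 14.5 CPM with a median of 0.921 CPM. Over the 70 genes that kept any count in HELLS KO, the ratio of the HAP1 mean to the HELLS KO mean had a median of 7.38, with the lowest at 3.19 for IRX2. The highest among the 67 genes with more than 6 HELLS KO counts was 49.8 for SLC19A3, which rests on 14 such counts, and the ratios above it rest on 6 counts or fewer. It was over 5 for 55 genes and over 10 for 27. The median log2 fold change was -2.90, beside 0.006 over all 17925 genes tested.

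In edgeR's fit over all genes without a replicate block, 0.72% of the genes tested were called lower in HELLS KO, and 69 of the 72 were among them. FSTL4 and KCNE3 were among the 3 that were not. With the replicate number as a block, 1.49% of all genes and all 72 were called lower, and 2.03% of all genes were called higher. The choice fixed this, so nothing is read from it. By the choice, too, no HAP1 library of any of the 72 overlapped a HELLS KO library, a separation that 4.78% of the 12592 genes showed in this direction. Just inside the limit lay CFAP300 with a ratio of 0.383, TSPAN18 with 0.386 and CLCN4 with 0.387. Just outside lay FAM162B with 0.405, PDE9A with 0.411 and SHE with 0.419.

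**Figure D1:**
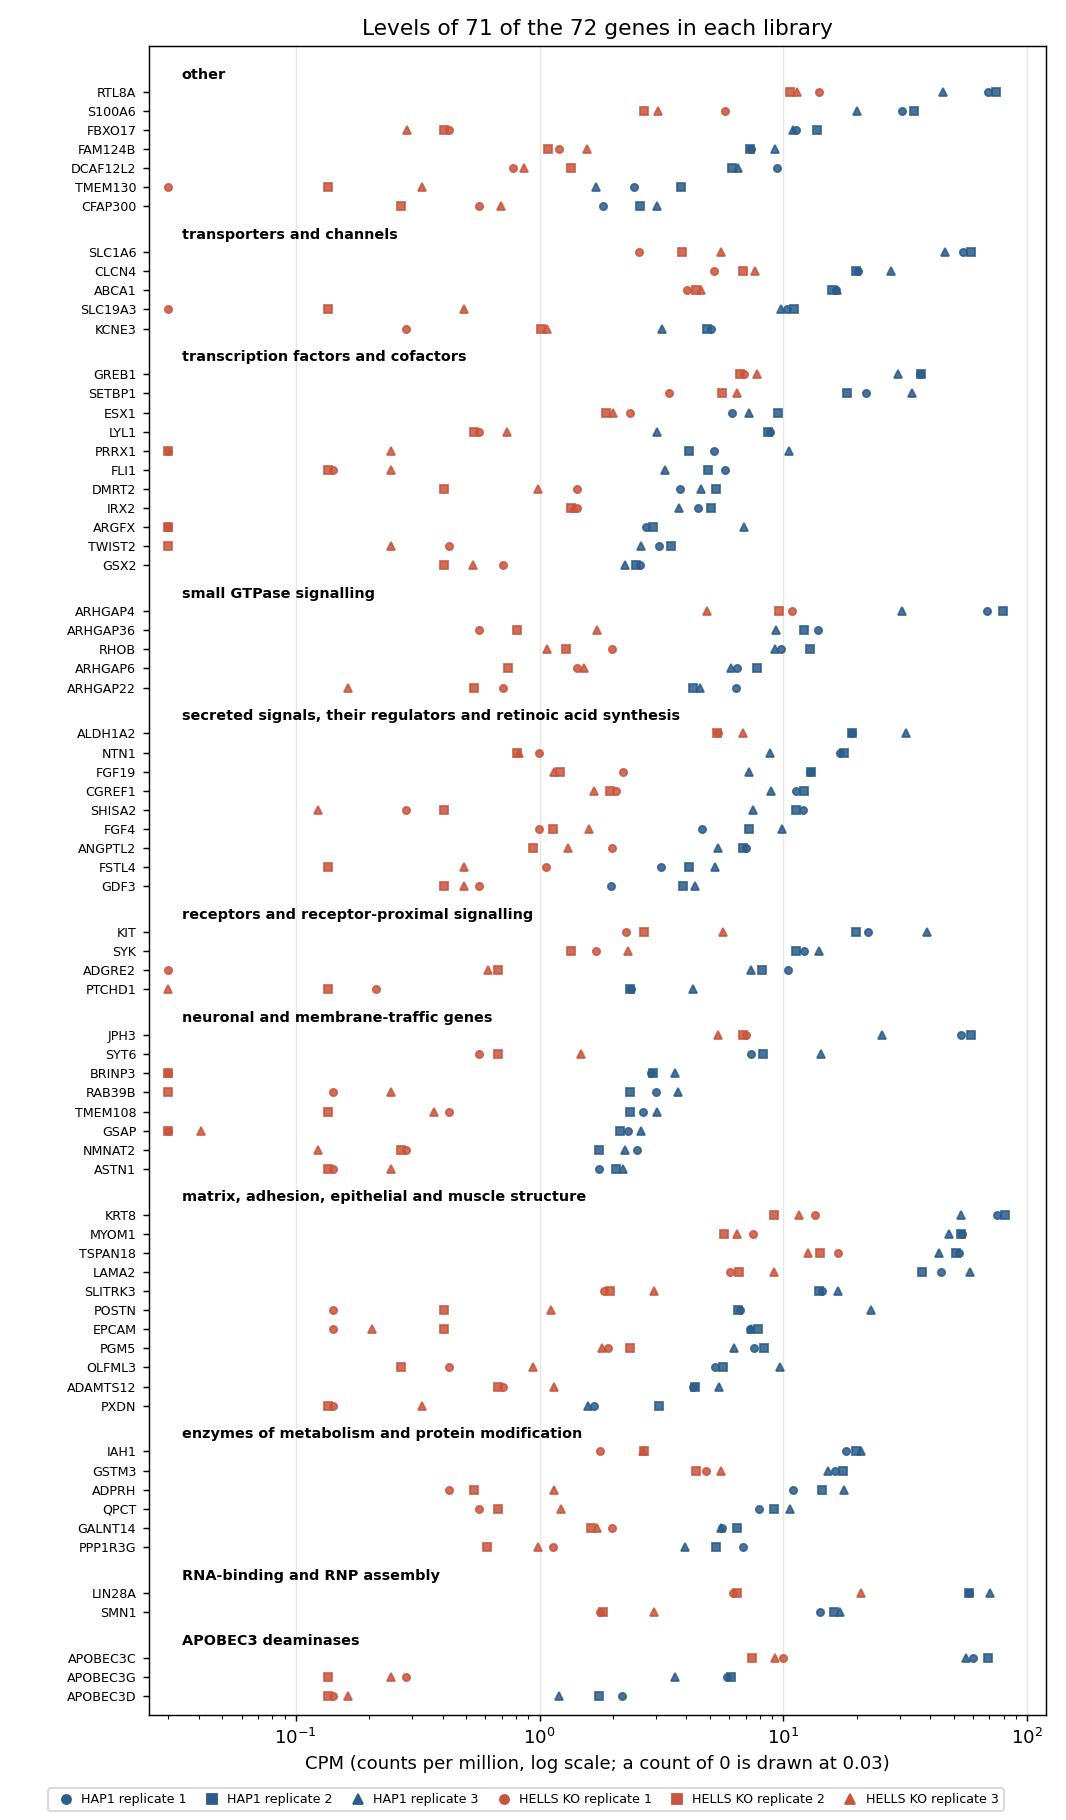
Level in each library (CPM, horizontal log axis, a count of 0 drawn at 0.03) of 71 of the 72 genes, grouped by role, with HAP1 replicates in blue and HELLS KO replicates in red, and a symbol for each replicate. In every row the 3 HELLS KO libraries lie to the left of the 3 HAP1 libraries, and the highest mean in HELLS KO is 14.5 CPM.

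The libraries held between 13641237 and 24400187 counts. Replicate 3 was the deepest in both lines and is labelled as a separate batch in both. Mitochondrial genes took 0.101% to 0.179%. HELLS itself, whose reading frame rather than transcript is targeted, held 1444, 1488 and 3671 HAP1 counts against 1410, 1375 and 2802, a log2 difference of -0.24, so its level is no check of the labels. Counts of 1 to 6 were even for 58.6% to 66.2% of such genes in each library, as they are where both mates of a read pair are counted. A gene at 0 was therefore given a floor of 6 counts, or 3 read pairs, over the 3 libraries, which covers counting error only. In whole cultures, fewer cells that express a gene and less of its RNA per cell cannot be told apart.

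Transcription factors and cofactors made up 11 of the 72 genes. The most complete loss was that of ARGFX, a homeobox factor of the early cleavage embryo. The HAP1 libraries held 39, 40 and 167 of its counts and no HELLS KO library held any, which makes it at least 42-fold lower. PRRX1, a homeobox factor of limb and craniofacial mesenchyme, had 5.18, 4.11 and 10.5 CPM in HAP1 and 0, 0 and 0.246 CPM in HELLS KO, a ratio of means of 80.6. In both genes HAP1 replicate 3 was the highest library, and the few PRRX1 counts in HELLS KO came from its replicate 3. TWIST2, a basic helix-loop-helix factor of the same tissue, had 3.08, 3.45 and 2.61 CPM against 0.425, 0 and 0.246 CPM.

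A pair of blood cell factors was lost alongside. FLI1, an ETS factor of blood and endothelium, had 5.74, 4.91 and 3.27 CPM in HAP1 and 0.142, 0.135 and 0.246 CPM in HELLS KO, a ratio of 26.7. LYL1, a basic helix-loop-helix factor of blood progenitors, had 8.82, 8.65 and 3.03 CPM against 0.567, 0.538 and 0.738 CPM. Its replicate 3 was the lowest HAP1 library and the highest HELLS KO library, which brought the lines nearest to each other in that pair. The other homeobox and DM-domain factors kept more of their RNA. IRX2, of the Iroquois family, had 4.42 ± 0.666 CPM (SD, n = 3) in HAP1 and 1.39 ± 0.0361 in HELLS KO, the smallest ratio of the 72 at 3.19. ESX1, an X-linked homeobox gene of the placenta, had a ratio of 3.68, GSX2, a forebrain homeobox gene, 4.45, and DMRT2, a factor of the somites, 4.87. GREB1, a cofactor of the oestrogen receptor, went from 34.3 ± 4.05 to 7.12 ± 0.621 CPM (SD, n = 3), and SETBP1, a SET-binding protein mutated in myeloid neoplasms, from 24.6 ± 8.02 to 5.15 ± 1.58 CPM.

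Secreted signals, their regulators and retinoic acid synthesis were represented by 9 genes. SHISA2, which holds Frizzled and FGF receptors back in the endoplasmic reticulum, was at 12, 11.3 and 7.54 CPM in HAP1 and at 0.283, 0.404 and 0.123 CPM in HELLS KO, a ratio of 38.0. Its start is one of the CpG-dense ones shown above. NTN1, the axon guidance cue netrin-1, was at 17.1, 17.8 and 8.83 CPM against 0.992, 0.808 and 0.82 CPM, a ratio of 16.7. FGF19 and FGF4 are both ligands of FGF receptors and lie 67.0 kb apart on chromosome 11. FGF19 was at 12.9, 13 and 7.21 CPM in HAP1 and 2.2, 1.21 and 1.15 CPM in HELLS KO. FGF4, a signal of the early embryo, was at 4.62, 7.26 and 9.86 CPM against 0.992, 1.14 and 1.6 CPM. The neighbouring gene FGF3 had no count in any of the 6 libraries. ALDH1A2, the enzyme that makes retinoic acid in the embryo, went from 23.4 ± 7.3 to 5.83 ± 0.839 CPM (SD, n = 3). GDF3, a TGF-beta family ligand of pluripotent cells, went from 3.4 ± 1.27 to 0.487 ± 0.0816 CPM. The remaining ones were FSTL4, ANGPTL2 and CGREF1, with ratios of 7.39, 4.53 and 5.68.

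The APOBEC3 genes, which encode cytidine deaminases that restrict retroviruses and retroelements, lie in a row on chromosome 22, and 3 of them were among the 72. APOBEC3C (chr22:39014257-39020352) was at 60.1, 69.3 and 56.2 CPM in HAP1 and at 9.92, 7.47 and 9.26 CPM in HELLS KO. APOBEC3D (chr22:39021113-39033277) was at 2.17, 1.76 and 1.2 CPM against 0.142, 0.135 and 0.164 CPM. APOBEC3G (chr22:39077067-39087743) was at 5.88, 6.08 and 3.61 CPM against 0.283, 0.135 and 0.246 CPM. The ratios of the means were 6.96, 11.7 and 23.5, and all 3 starts were CpG-poor. The losses were not shared along the whole row. APOBEC3B, which lies 21.5 kb from APOBEC3C, was at 3.99, 4.91 and 4.56 CPM in HAP1 and at 3.4, 3.5 and 6.68 CPM in HELLS KO, a log2 change of 0.03 (standard error, SE, 0.33, adjusted p = 1.0, edgeR). Its libraries overlapped between the lines. APOBEC3F, which lies between APOBEC3D and APOBEC3G, was at 16.0, 14.6 and 7.71 CPM against 8.57, 7.87 and 5.25 CPM. Its log2 change was -0.82 (SE 0.33), with an adjusted p of 0.68 in edgeR without the block and 0.037 with it, and HAP1 replicate 3 lay below HELLS KO replicates 1 and 2. APOBEC3A and APOBEC3H had at most 2 counts in any library.

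The plot of the APOBEC3 row sets these 7 genes side by side, with the 3 lost genes interleaved with APOBEC3F and next to APOBEC3B. Sequence in common limits how far the genes can be told apart. Of all 31-base stretches in the transcripts of APOBEC3D, 90.6% also occur in another annotated gene, most of them in a transcript that reads through from its neighbour. The share was 14.5% for APOBEC3G and 10.6% for APOBEC3C.

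**Figure D2:**
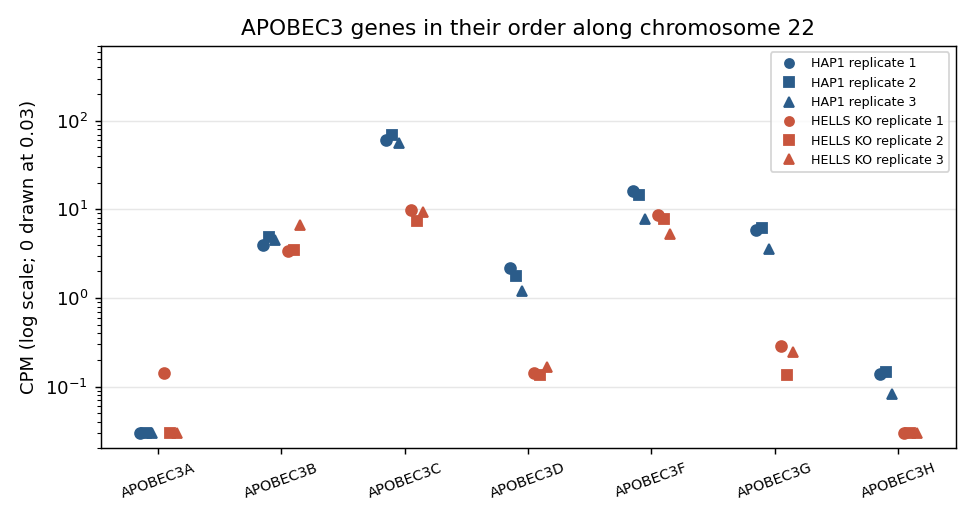
Level in each library (CPM, vertical log axis, a count of 0 drawn at 0.03) of the 7 APOBEC3 genes in their order along chromosome 22 (horizontal axis), HAP1 in blue and HELLS KO in red. APOBEC3C, APOBEC3D and APOBEC3G separate by ratios of 6.96, 11.7 and 23.5, while the libraries of APOBEC3B overlap.

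Receptors and signalling proteins next to them came to 4 genes. KIT, the receptor of stem cell factor, was at 22.3, 19.8 and 38.7 CPM in HAP1 and at 2.27, 2.69 and 5.66 CPM in HELLS KO. Replicate 3 was the highest library in both lines, and the ratio of the means was 7.61. GSX2 and KIT lie 555 kb apart on chromosome 4 with PDGFRA, the receptor of platelet-derived growth factor, between them. PDGFRA was at 73.2, 67.1 and 109 CPM in HAP1 and at 19, 23.2 and 40 CPM in HELLS KO. Its log2 change was -1.59 (SE 0.32), with an adjusted p of 0.061 in edgeR without the block and 0.00024 with it, so it was not called without the block although its libraries did not overlap. SYK, a kinase downstream of immune receptors, was at 12.2, 11.3 and 14 CPM against 1.7, 1.35 and 2.3 CPM. ADGRE2, an adhesion receptor of myeloid cells, was at 10.4, 8.14 and 7.34 CPM against 0, 0.673 and 0.615 CPM, a ratio of 20.1. It overlaps ZNF333 on the opposite strand, which was at 28.3 ± 1.57 CPM in HAP1 against 31.8 ± 4.4 CPM in HELLS KO (SD, n = 3). PTCHD1, an X-linked protein with a Patched domain, was at 2.38, 2.35 and 4.27 CPM against 0.213, 0.135 and 0 CPM.

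Matrix, adhesion, epithelial and muscle structure formed the largest group, with 12 genes. Of these, 4 belong to the matrix itself. POSTN, the matrix protein periostin, was at 6.65, 6.52 and 22.8 CPM in HAP1 and at 0.142, 0.404 and 1.11 CPM in HELLS KO, a ratio of 21.8. Its replicate 3 was 3.47 times the mean of the other HAP1 libraries, the widest such gap among the 72, and 4.06 times in HELLS KO. LAMA2, a laminin chain of muscle basement membrane, was at 44.2, 36.9 and 58.4 CPM against 6.02, 6.6 and 9.18 CPM. OLFML3, a secreted olfactomedin-domain protein, went from 6.85 ± 2.44 to 0.546 ± 0.353 CPM (SD, n = 3), and PXDN, a peroxidase that cross-links basement membrane collagen, from 2.11 ± 0.84 to 0.201 ± 0.11 CPM. ADAMTS12, a secreted metalloprotease, had a ratio of 5.55.

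Of the epithelial genes, EPCAM, a surface glycoprotein of epithelia and pluripotent cells, was at 7.28, 7.84 and 7.38 CPM in HAP1 and at 0.142, 0.404 and 0.205 CPM in HELLS KO, a ratio of 30.0. KRT8, a keratin of simple epithelia, was at 75.2, 81.4 and 53.4 CPM against 13.5, 9.15 and 11.6 CPM, the highest HAP1 mean of the 72 as CPM. KRT18, the keratin that pairs with KRT8 in filaments, was at 49.8 ± 8.87 CPM in HAP1 against 43.7 ± 8.69 CPM in HELLS KO (SD, n = 3), a log2 change of -0.19 (SE 0.19, adjusted p = 1.0, edgeR). So within this keratin pair only the KRT8 libraries were separated. Of the 31-base stretches of KRT8, 25.8% occur in other genes, with 8.87% in the pseudogene KRT8P3. MYOM1, an M-band protein of muscle, went from 51.9 ± 3.43 to 6.55 ± 0.901 CPM, and TSPAN18, a tetraspanin, from 48.9 ± 4.83 to 14.5 ± 2.08 CPM. SLITRK3, an adhesion protein of synapses, and PGM5, a protein of cell junctions, had ratios of 6.7 and 3.66.

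Neuronal and membrane-traffic genes numbered 8. BRINP3, a gene of the nervous system related to the astrotactins, gave 41, 40 and 87 HAP1 counts and none in any HELLS KO library, so that it was at least 28.7-fold lower. GSAP, the gamma-secretase activating protein, gave 33, 29 and 63 HAP1 counts against 0, 0 and 1 in HELLS KO. Pooled over libraries and scaled by their totals, its ratio was 128 with an exact 95% counting interval of 22.6 to 5100, which treats counts as independent. ASTN1, astrotactin 1, which neurons need to migrate along glia, was at 1.75, 2.05 and 2.2 CPM against 0.142, 0.135 and 0.246 CPM. JPH3, a junctophilin of neurons, was at 53.7, 58.6 and 25.5 CPM against 7.01, 6.8 and 5.41 CPM. SYT6, a synaptotagmin, was at 7.35, 8.28 and 14.3 CPM against 0.567, 0.673 and 1.48 CPM, and it lies 53.7 kb from OLFML3 on chromosome 1. In both of that pair replicate 3 was the highest library of each line. RAB39B, an X-linked vesicle GTPase, had a ratio of 23.3, NMNAT2, an axonal enzyme of NAD synthesis, 9.65, and TMEM108, a membrane protein of neurons, 8.65.

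Small GTPase signalling accounted for 5 genes, 4 of them with a GTPase-activating domain. ARHGAP4 was at 68.2, 79.4 and 30.8 CPM in HAP1 and at 10.8, 9.56 and 4.84 CPM in HELLS KO, with replicate 3 the lowest library of each line. ARHGAP36 was at 13.9, 12.2 and 9.37 CPM against 0.567, 0.808 and 1.72 CPM, a ratio of 11.4. RHOB, an endosomal small GTPase, was at 9.8, 12.9 and 9.28 CPM against 1.98, 1.28 and 1.07 CPM. ARHGAP6 and ARHGAP22 had ratios of 5.53 and 10.8.

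Transporters and channels were 5 in number. SLC19A3, the thiamine transporter, was at 10.3, 11.1 and 9.82 CPM in HAP1 and at 0, 0.135 and 0.492 CPM in HELLS KO, a ratio of 49.8. SLC1A6, a glutamate transporter of Purkinje cells, was at 54.5, 58.9 and 45.8 CPM against 2.55, 3.84 and 5.53 CPM, a ratio of 13.4. SLC1A6 lies 171 kb from ADGRE2 on chromosome 19, and the olfactory receptor genes between them had at most 2 counts in any library. ABCA1, the cholesterol efflux pump, went from 16.3 ± 0.363 to 4.33 ± 0.278 CPM (SD, n = 3). CLCN4, a chloride and proton exchanger, went from 22.6 ± 4.41 to 6.54 ± 1.27 CPM, and KCNE3, a subunit of potassium channels, from 4.36 ± 1.01 to 0.786 ± 0.436 CPM.

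Enzymes came to 6 genes. ADPRH, the hydrolase that removes ADP-ribose from arginine, was at 10.9, 14.4 and 17.7 CPM in HAP1 and at 0.425, 0.538 and 1.15 CPM in HELLS KO, a ratio of 20.4. The genes ADPRS, ADPRHL1 and PARG were set beside it, since the study examined poly(ADP-ribose). ADPRS, which removes ADP-ribose from serine, had a log2 change of 0.01 (SE 0.14, adjusted p = 1.0, edgeR), ADPRHL1 of -0.63 (SE 0.21, adjusted p = 0.41) and PARG, which degrades poly(ADP-ribose) chains, of -0.01 (SE 0.2, adjusted p = 1.0). ADPRH was chosen for being lower, so nothing is read from its call. ADPRS, ADPRHL1 and PARG were not called, and the differences between these genes and ADPRH were not tested. QPCT, glutaminyl cyclase, was at 7.98, 9.16 and 10.6 CPM against 0.567, 0.673 and 1.23 CPM. IAH1, an esterase, had a ratio of 8.24, and 25.7% of its 31-base stretches are shared with ADAM17, which it overlaps. PPP1R3G, a glycogen-targeting subunit of a phosphatase, had a ratio of 5.9, GSTM3, a glutathione transferase, 3.33 and GALNT14, which starts mucin-type glycosylation, 3.31.

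LIN28A, the RNA-binding protein that blocks let-7 maturation, was at 57.7, 57.5 and 70.6 CPM in HAP1 and at 6.23, 6.46 and 20.9 CPM in HELLS KO. HELLS KO replicate 3 stood at 3.29 times the mean of the other HELLS KO libraries, against 1.23 times in HAP1. SMN1, the survival of motor neuron protein that assembles spliceosomal particles, was at 14.1, 16.1 and 17.1 CPM against 1.77, 1.82 and 2.95 CPM. Its near-identical copy SMN2, 847 kb away, was at 8.4, 9.24 and 11.9 CPM in HAP1 and at 10.8, 10.4 and 9.18 CPM in HELLS KO, a log2 change of 0.04 (SE 0.21, adjusted p = 1.0, edgeR). Of the 31-base stretches of SMN1, 88.8% are also in SMN2. Reads that fit both copies equally well fall under the mapping quality of 20 that the authors required. The split between the copies therefore rests on the kept reads that tell them apart, and how well these were assigned was not tested. The sum of both copies, which is the same whichever copy a kept read was assigned to, was 22.5, 25.3 and 29 CPM in HAP1 and 12.6, 12.2 and 12.1 CPM in HELLS KO, without overlap.

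The other 7 genes had no role in common. RTL8A, an X-linked gene derived from a retrotransposon Gag, was at 69.3, 74.2 and 45.3 CPM in HAP1 and at 14, 10.6 and 11.4 CPM in HELLS KO. Its neighbours RTL8C and RTL8B lie 17.4 and 28.4 kb away. RTL8C was at 94.5 ± 23.3 CPM in HAP1 against 90.8 ± 24.5 CPM in HELLS KO (SD, n = 3), a log2 change of -0.05 (SE 0.25, adjusted p = 1.0, edgeR). RTL8B was at 12.2 ± 1.03 and 18.8 ± 0.619 CPM, a log2 change of 0.63 (SE 0.16, adjusted p = 0.16, edgeR). Its HELLS KO libraries were all above its HAP1 libraries, in contrast to RTL8A. FBXO17, a substrate subunit of ubiquitin ligases, was at 11.3, 13.7 and 10.9 CPM against 0.425, 0.404 and 0.287 CPM, a ratio of 32.2. S100A6, a calcium-binding protein, was at 30.7, 34.2 and 20 CPM against 5.74, 2.69 and 3.07 CPM. CFAP300, a protein of motile cilia, had a ratio of 4.84, and FAM124B, DCAF12L2 and TMEM130 had ratios of 6.22, 7.38 and 17.2. Compared per length, the most abundant of the 72 in HAP1 were RTL8A at a mean FPKM of 49.1, S100A6 at 28.8, APOBEC3C at 21.7, LIN28A at 15.3 and KRT8 at 13.8. In HELLS KO the same genes were at 9.32, 3.86, 3.1, 2.76 and 2.24 FPKM.

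Relatives of the 72 were then examined to see whether whole families were lower. A relative was a protein-coding gene with the same letters before the first digit of its symbol, so that it shares a name and not always an ancestor. Symbols without a digit, and very common or general stems such as TMEM and FAM, were left out. This left 51 of the 72 genes with a stem to compare. Of 316 relatives, 212 were tested. Of these, 1 was called lower (0.472%) and 5 were called higher (2.36%), against 0.72% and 1.5% of all genes tested, and their median log2 fold change was 0.0. With the replicate number as a block in the model 6 were called lower (2.83%) and 6 higher (2.83%), against 1.49% and 2.03% of all genes, so that the share of lower relatives lay under the background without the block and above it with the block. The relative called lower was FBXO36, at 9.17 ± 0.676 CPM in HAP1 against 4.21 ± 0.197 CPM in HELLS KO (SD, n = 3, log2 fold change -1.12, SE 0.20, adjusted p = 0.035, edgeR).

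With the block PRRX2, GALNT5, DMRT3, SYT12 and ADAMTS10 were called lower besides FBXO36. PRRX2, named like PRRX1, was at 21.3, 19.7 and 5.64 CPM in HAP1 and at 8.36, 6.53 and 2.01 CPM in HELLS KO. Its adjusted p was 0.76 in edgeR without the block and 0.0011 with it, and its libraries overlapped between the lines. Higher relatives stood beside BRINP3, IRX2, JPH3, ADAMTS12 and FGF4 with FGF19. BRINP1 had no count in HAP1 and was at 1.13, 0.808 and 0.82 CPM in HELLS KO (adjusted p = 0.022, edgeR), the reverse of BRINP3. IRX4, 859 kb from IRX2 on chromosome 5, was at 1.82, 2.64 and 1.53 CPM in HAP1 and at 75.7, 58.8 and 42.9 CPM in HELLS KO (log2 fold change 4.91, SE 0.31, adjusted p = 0.00038, edgeR). IRX4 thus rose while IRX2 in the same Iroquois cluster fell by 1.66 on the log2 scale. JPH4 was at 1.82, 1.91 and 0.87 CPM against 8.01, 7.54 and 7.62 CPM (log2 fold change 2.36, SE 0.34, adjusted p = 0.013). ADAMTS20 was at 0, 0.147 and 0.373 CPM against 1.77, 4.17 and 7.09 CPM (log2 fold change 4.43, SE 0.85, adjusted p = 0.046). FGF9 was at 0.91, 1.76 and 1.33 CPM against 4.53, 3.63 and 5.25 CPM (log2 fold change 1.75, SE 0.33, adjusted p = 0.044). The libraries of these 5 higher relatives did not overlap between the lines. The plot of lost genes beside a gene of like name shows these pairs moving in opposite directions, while SMN2, LIN28B and KRT18 overlap. The relatives called lower are not drawn in it. Leaving out 1 library ended some of the calls made without the block. IRX4 stayed called whichever library was left out (highest adjusted p 0.0064), JPH4 was lost without HELLS KO replicate 1 or 2 (highest adjusted p 0.078), and BRINP1 and ADAMTS20 were lost when any library other than HAP1 replicate 3 was left out (highest adjusted p 0.15 and 0.17). FGF9 and FBXO36 were lost whichever of the 6 libraries was left out (highest adjusted p 0.16 and 0.17).

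Neighbours of the 72 along the chromosome were examined in the same way. Another 483 genes lie within 100 kb of them, and 159 of these were tested. Of the 159, 2 were called lower (1.26%) and 2 higher (1.26%), against 0.72% and 1.5% of all genes tested. Their median log2 fold change was -0.01. Most tested genes around the 72 were not called, and the plot of neighbours against distance shows them spread about 0 at all distances. Among the 14 tested genes that overlap a member, 1 was called lower and the median was 0.02.

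GTF2H2, a subunit of the repair and transcription factor TFIIH, lies 81.1 kb from SMN1 and is a gene left out of the 72 by name. It was at 10.3, 11.8 and 15.9 CPM against 1.77, 3.1 and 3.61 CPM (log2 fold change -2.14, SE 0.33, adjusted p = 0.018, edgeR). TRPC4, a cation channel 33.2 kb from POSTN, moved the other way, from 7.98, 9.09 and 13.2 CPM to 26.4, 24.1 and 33.9 CPM (log2 fold change 1.48, SE 0.25, adjusted p = 0.025). EHD3, a protein of endocytic recycling 79.0 kb from GALNT14, went from 2.59, 3.89 and 3.03 to 7.58, 8.68 and 9.34 CPM (log2 fold change 1.44, SE 0.25, adjusted p = 0.028). Of these 3 calls, that of GTF2H2 was lost without HELLS KO replicate 2 (adjusted p 0.10). That of EHD3 was lost whichever of the 6 libraries was left out (highest adjusted p 0.15), and that of TRPC4 with each library other than HAP1 replicate 3 (highest 0.10).

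With the replicate block 5 neighbours were called lower (3.14%) and 2 higher (1.26%), against 1.49% and 2.03% of all genes, and 3 of the lower ones were not called without it. DMRT3, 58.1 kb from its relative DMRT2, was at 6.57 ± 1.11 CPM in HAP1 against 2.7 ± 0.418 CPM in HELLS KO (SD, n = 3), with an adjusted p of 0.054 without the block and 0.014 with it. IRX2-DT, a long non-coding RNA that starts 0.454 kb from IRX2 on the other strand, was at 32.3, 33.9 and 15.2 CPM against 15.7, 9.09 and 5.37 CPM, with an adjusted p of 0.31 without the block and 0.0016 with it. RINL, 63.1 kb from FBXO17, was at 24.5 ± 4.89 and 11.2 ± 3.53 CPM, with 0.10 and 0.0076. WWC3, 12.5 kb from CLCN4, went from 62.2 ± 1.08 to 32.8 ± 2.04 CPM with an adjusted p of 0.013 and missed the limit on size with a log2 fold change of -0.92.

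Within 1 Mb of another of the 72 lay 13 genes. Besides the 3 APOBEC3 genes these were FGF4 with FGF19, OLFML3 with SYT6, ADGRE2 with SLC1A6, GSX2 with KIT, and ARHGAP6 with CLCN4. Between CLCN4 and ARHGAP6, 880 kb apart on the X chromosome, MID1 and HCCS had log2 fold changes of -0.07 and 0.04 (adjusted p = 1.0 for both, edgeR). By chromosome, 11 of the 72 (15.3%) lay on chromosome 2 against 6.67% of the 12592 genes, and 9 (12.5%) on the X against 3.71%. Chromosome 1 also held 9 (12.5% against 10.1%). No member lay on chromosomes 8, 14, 20 or 21. The gene bodies had a median length of 36.7 kb against 33.9 kb, with a median of 7 exons in the principal transcript against 9.

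Some pathways and families of the 72 were covered with 11 lists, of which 661 genes were tested and 18 are members. The rest of the 72 were on none of the lists. Among the other 643 tested genes of the lists, 5 were called lower (0.778%) and 11 higher (1.71%), beside a background of 0.72% and 1.5%. With the replicate block 19 were called lower (2.95%) and 15 higher (2.33%), beside 1.49% and 2.03%. The lower genes included CACNG7, a calcium channel subunit (log2 fold change -2.33, SE 0.39, adjusted p = 0.026, edgeR), the glucose transporter SLC2A3 (-1.23, 0.17 and 0.013), the amino acid transporter SLC7A8 (-1.38, 0.23 and 0.025), and the homeobox factor EN1 (-1.47, 0.22 and 0.015).

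Counts for each list are given without the members on it, since those were chosen for being lower. In the axon guidance list, which holds NTN1, none of 63 other tested genes was called, and their median log2 fold change was -0.04. The WNT, BMP, Notch and FGF ligands and receptors, which include FGF4, FGF19 and GDF3, had no lower gene among 68 others and 1 higher, FGF9, with a median of -0.09. The list of matrix genes outside the collagens holds POSTN and ADAMTS12 but not LAMA2, OLFML3 and PXDN. Of its 69 other tested genes none was lower and 1 was higher, ADAMTS20, with a median of -0.15. Of 24 synaptic adhesion genes other than SLITRK3 none was lower and 2 were higher, CNTN1 and NRCAM, with a median of -0.04. The homeobox genes outside the HOX clusters, with GSX2, IRX2 and PRRX1 set aside, had 2 lower genes of 80, EN1 among them, and 3 higher, EMX2, IRX4 and POU3F4, with a median of -0.03. Of 253 other solute carriers 2 were lower and 3 higher, with a median of -0.01, and of 72 other channel genes 1 was lower and none higher, with a median of -0.02.

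The remaining lists were small. Beside GSAP, 6 tested genes of gamma-secretase, the enzyme's subunits among them, had a median log2 fold change of 0.01 and no call. Beside PTCHD1, 6 tested genes with a Patched domain had a median of 0.13 and no call. Of the BRINP and astrotactin genes 2 were tested besides BRINP3 and ASTN1, and BRINP1 was called higher. Of the early embryonic homeobox genes related to ARGFX, 1 other was tested, with a log2 fold change of 0.01.

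Markers of the lineages to which members belong were checked. HAP1 is labelled as a leukaemia line, yet PTPRC, the pan-leukocyte antigen CD45, had at most 3 counts in any library, as had MPO, ITGAM and CD53, and SPI1 and HBG1 had none. GATA2 and TAL1, factors of blood progenitors, were at 112 ± 17.9 and 93.3 ± 6.59 CPM in HAP1 and at 110 ± 17.8 and 80.0 ± 1.7 in HELLS KO (SD, n = 3). Of the 20 blood markers 9 were tested. KIT and LYL1 are members, chosen for being lower, and no other was called. Without KIT and LYL1 the summed level was 254 to 293 CPM in HAP1 and 239 to 288 in HELLS KO. Of the 10 epithelial markers EPCAM and KRT8 are members. The others summed to 70.5 to 87.0 CPM against 57.3 to 73.2, most of it from KRT18, and none of the 6 tested was called. Their log2 fold changes were below 0 for 5 of the 6, with a median of -0.59, and were -1.04 for CLDN7, -0.86 for CLDN4 and -0.54 for ESRP2. ESRP1, an epithelial splicing factor, was at 20.9, 21.7 and 25.2 CPM in HAP1 and at 13.7, 11.3 and 18.1 CPM in HELLS KO, without overlap (log2 fold change -0.65, SE 0.21, adjusted p = 0.37 in edgeR without the block and 0.035 with it). The part of these markers in the loss of the members was not tested. Of 13 mesenchymal markers 11 were tested, and S100A6 is a member. The others summed to 638 to 745 CPM against 519 to 656, with LUM and DCN at 0 in every library. None of the 10 others tested was called. Their log2 fold changes were below 0 for 5 of the 10, with a median of -0.03. These 5 include PDGFRA, given above, and SPARC, at 127 ± 3.45 CPM in HAP1 against 96.0 ± 5.53 CPM in HELLS KO (SD, n = 3). SPARC had an adjusted p of 0.16 in edgeR without the block and 0.025 with it. Of 12 neuronal markers 8 were tested and none was called, and the sums were 26.3 to 29 CPM against 28.5 to 35.4. Although the sums were not lower, the log2 fold changes were below 0 for 5 of the 8, with a median of -0.16.

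Of 8 pluripotency markers 6 were tested. LIN28A is a member, chosen for being lower, and none of the others was called. The others summed to 536 to 546 CPM in HAP1 and 502 to 517 in HELLS KO. POU5F1, SOX2 and DPPA4 had log2 fold changes of -0.09, -0.09 and -0.03 (adjusted p = 1.0 for each, edgeR), and LIN28B, the relative of LIN28A, of -0.07 (SE 0.29, adjusted p = 1.0). TDGF1, a co-receptor of Nodal, had a log2 fold change of -1.57 with an adjusted p of 0.065 without the replicate block and 0.0021 with it. The part of any shift in cell state in the losses was not tested.

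Replicate 3 stood apart from the others in many of the 72. In HAP1 its level divided by the mean of replicates 1 and 2 had a median of 0.921 and ran from 0.346 for LYL1 to 3.47 for POSTN. It was over 1.5 for 10 genes and under the inverse of 1.5 for 15, together 25 of 72 (34.7%), against 27.7% of the 12592 genes. For the 34 genes with at least 60 counts over the HELLS KO libraries, this ratio went with the same ratio in HELLS KO across genes, with a Pearson's r of 0.66 and a Spearman coefficient of 0.68, and it lay on the same side of 1 in 26. Over 12483 genes Pearson's r was 0.87. Genes are not independent and all these ratios share the same libraries. The median ratio of HAP1 to HELLS KO within replicates 1, 2 and 3 was 6.4, 8.84 and 6.06, over the 61 genes with counts in every HELLS KO library. The rule compared all 6 libraries and so fixed a minimum for each of these ratios, which are given as a description.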

How the data were processed

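The authors aligned paired reads of stranded libraries with STAR 2.7.3a to GRCh38, kept non-duplicated reads of sufficient mapping quality, and deposited raw counts per gene made with featureCounts 2.0.6. They also deposited FPKM values of 24956 genes, used here only to compare levels per length. DESeq2 1.44.0 is listed in the submitters' processing notes. The annotation version and strand setting are not given in the sources used here, so 39 of the 72 genes, which another annotated gene overlaps, may hold its reads. The methods call the replicates biological but do not say what separated them, so p-values measure the spread between these libraries.

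Gene identifiers were matched to GENCODE release 44 (56321 of 60483). Genes were tested over all 6 libraries with edgeR 4.0.16 in R 4.3.3 (filterByExpr, TMM, glmQLFit, glmQLFTest, Benjamini-Hochberg). A call needed an adjusted p below 0.05 and a log2 change of 1 or more in size. The common biological coefficient of variation was 0.242. Alternatives included DESeq2 1.42.0, other filters and scaling, libraries left out, and a replicate block. Same-numbered replicates deviated together from their line's mean across genes (correlations 0.416, 0.197 and 0.778). The replicate block treated the numbers as pairs, while the main fit did not. The crossed correlations were 0.591 for HAP1 replicate 2 with HELLS KO replicate 1, and 0.33 for HAP1 replicate 1 with HELLS KO replicate 2. Both exceed 0.197, so only the pair of replicate 3, the labelled batch, stands out. The pairing of replicates 1 and 2 is uncertain, and so are the p-values with the block. The edgeR and DESeq2 fits without the block were also run on simulated counts that held no replicate or batch effect. The fit with the block was not tried on them.

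Members and lists were chosen with earlier results of these data known. Named by rule were ARGFX and BRINP3, the 10 members highest in HAP1, the 10 with the lowest ratio, those within 1 Mb of another, on a list or sharing a symbol stem, those next to the ratio limit, and each called neighbour and relative. Role groups, the members named outside that rule, SMN2, RTL8B, RTL8C, ADPRS, ADPRHL1, PARG and KRT18 were chosen after values were seen. So were the uncalled epithelial and mesenchymal markers, LIN28B, PDGFRA, ZNF333, MID1 and HCCS. The same holds for the uncalled APOBEC3 genes, uncalled neighbours and relatives called only with the block. Of the 72 genes, 1 is counted but not described here, and some other genes are not reported here.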

Additional observations from a re-analysis of the deposited data

How the results depend on the processing

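Each library left out in turn gave between 76 and 126 genes by the same rule in place of 72, and the 126 came without HAP1 replicate 3. A ratio of 0.5, a minimum of 10 counts and each library left out only loosen the rule, so all 72 had to be found again. With TMM library sizes 73 genes were found, all 72 among them. The stricter ratio of 0.3 kept 52 of the 72, and a minimum of 50 counts kept 55. The median log2 fold change of the members tested was -2.56 with at least 10 counts in every library. That filter drops the genes that lost most of their counts. With libraries left out the median was -3.04 to -2.81. A bound of 6 counts for genes with 3 or fewer HELLS KO counts was chosen after seeing the data, in place of a planned bound of 3 counts that was not run.

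The number of genes called lower over all genes, 129, became 244 with DESeq2, 48 with at least 10 counts in every library, 200 with no filter, 267 with the replicate block, 285 with a batch term, 219 with replicates 1 and 2 only, and 40 to 176 with libraries left out. The number called higher, 269, became 426 with DESeq2, 29 with the minimum of 10, 415 with no filter and 112 to 273 with libraries left out. Called neighbours, 4, became 9 with DESeq2, 0 with the minimum of 10 (where low genes are not tested), 9 with no filter, 7 with the block, 7 with the batch term, 2 within 50 kb, 7 within 500 kb and 0 to 4 with libraries left out. Called relatives, 6, became 11, 2, 12 and 11 with DESeq2, the minimum of 10, the block and the batch term, and 1 to 7 with libraries left out. Lower genes of the lists, with the members on them counted in, were 22. They became 34, 8, 37, 40 and 35 with DESeq2, the minimum of 10, the block, the batch term and replicates 1 and 2 only. With libraries left out they were 5 to 31. The members were chosen for being lower, so nothing is read from these totals. Of the 22, 5 were not members, and of the 37 with the block, 19. Of the 10 called neighbours and relatives, all kept their calls with the block. Where a cause is not given it was not tested. Low depth limits genes near the floor of 6 counts over the 3 libraries of a line, which is a mean of 0.115 CPM in HAP1 and 0.112 CPM in HELLS KO.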
